A study of Mus musculus with 19 samples.

Results

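The genes described here are 10 genes of mitotic entry and the spindle checkpoint, Wee1, Pkmyt1, Plk1, Aurka, Aurkb, Bub1, Bub1b, Ttk, Cdc20 and Espl1, measured by RNA sequencing in crypts of the mouse small intestine. They were taken as a list of gene symbols, with no threshold on a measured value, and are 10 of the 55487 genes in the deposited tables. Each symbol matched 1 Ensembl gene, and all 10 passed the filter on low counts that left 17875 genes for testing.

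Crypts were isolated with EDTA from most of the length of the small intestine, its distal end left out, of C57BL/6 mice of both sexes, 10 to 16 weeks old. NT+/+ mice carried intact neurotensin, a gut hormone released when food, mainly fat, reaches the intestine. NT-/- mice lacked it in the whole body. The study also used mice with an Lgr5-EGFP reporter, and the labels of the sequenced mice name no reporter. Mice were fed standard chow ad libitum (AL) or fasted for 48 hours with water only (Fast), and the fed controls were littermates matched for sex and age. There were 5 NT+/+ AL, 4 NT-/- AL, 5 NT+/+ Fast and 5 NT-/- Fast mice, with 1 library per mouse. The design asks whether fasting, the loss of neurotensin and their combination change gene expression in the crypt.

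Total counts ran from 9059457 to 35068711 per mouse, with a median of 18541819. Nts, the neurotensin gene, was at 7.82 ± 0.773 CPM (counts scaled by library size, SD, n = 5) in NT+/+ AL, 5.42 ± 0.268 (n = 5) in NT+/+ Fast, 0.314 ± 0.290 (n = 4) in NT-/- AL and 0.433 ± 0.230 (n = 5) in NT-/- Fast crypts. NT+/+ Fast replicate 5 was NT+/+ by its title and NT-/- by its genotype label. Its Nts level, 5.43 CPM, lay within the narrow range of the other NT+/+ Fast mice, 4.98 to 5.71 CPM. Some results that rest on this mouse, among them call counts and the Pkmyt1 genotype estimate, are also given without it or with it as NT-/-. Summed epithelial markers were at 3630 to 4833 CPM in every mouse, and summed markers of crypt stem cells at 953 to 2876 CPM, beside 59.1 to 166 CPM of leukocyte markers and at most 6.32 CPM of fibroblast, smooth muscle, endothelial or neuronal markers.

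A cell enters mitosis when the kinase CDK1, bound to cyclin B, is freed from inhibitory phosphate groups placed by WEE1 and PKMYT1. PLK1 and the Aurora kinases then drive spindle assembly, and the checkpoint kinases BUB1, BUB1B (BUBR1) and TTK (MPS1) hold back the anaphase-promoting complex until every chromosome is attached. CDC20 activates that complex, which frees separase, the product of Espl1, to cleave cohesin and part the sister chromatids. In the intestine these genes are transcribed mainly in the dividing progenitor cells of the crypt, late in the cell cycle. The libraries came from whole crypts, so fewer dividing cells and less RNA per dividing cell cannot be told apart in any result given here.

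Many genes transcribed in G2 and M carry a cell cycle genes homology region (CHR, letters TTTGAA or TTTAAA) and CCAAT boxes near their start. RefSeq promoter windows, from 250 bases before to 50 bases after the start on GRCm38.p6, were given for 7 of the 10 genes, and not for Wee1, Pkmyt1 and Aurkb. The letters of the CHR, searched on both strands, were in 6 of the 7 windows (Bub1 lacked them) and in 27.6% of all 32851 windows in the table. CCAAT was in 7 of 7 and in 37.4% of all windows, and both motifs were in 6 of 7 and in 10.7% of all. These are matches of letters, not measured binding sites. Within the 150 bases before the start, 3 of 7 held the CHR letters (14.7% of all windows), 7 of 7 held CCAAT (24.5%) and 4 of 7 held CCAAT at least 2 times (6.02%). The 150 bases before the start are printed for the 3 genes with both motifs there and for Bub1, Aurka and Ttk, which had CCAAT 2 times and no CHR letters in that stretch. Sequences run 5′ to 3′ on the strand of the gene, and capitals mark the CHR and CCAAT letters (ATTGG is CCAAT on the other strand).
Cdc20 promoter, chr4:118437344-118437493, - strand: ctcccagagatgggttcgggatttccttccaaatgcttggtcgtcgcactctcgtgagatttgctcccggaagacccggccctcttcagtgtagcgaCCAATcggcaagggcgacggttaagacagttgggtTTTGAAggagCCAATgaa
Espl1 promoter, chr15:102296143-102296292, + strand: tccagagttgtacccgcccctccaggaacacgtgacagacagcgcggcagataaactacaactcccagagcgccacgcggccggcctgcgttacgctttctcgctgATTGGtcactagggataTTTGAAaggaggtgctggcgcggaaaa
Plk1 promoter, chr7:122159285-122159434, + strand: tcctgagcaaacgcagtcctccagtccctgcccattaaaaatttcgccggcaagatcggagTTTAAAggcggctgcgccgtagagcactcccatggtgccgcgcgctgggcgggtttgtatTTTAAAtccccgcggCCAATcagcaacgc
Bub1 promoter, chr2:127831860-127832009, - strand: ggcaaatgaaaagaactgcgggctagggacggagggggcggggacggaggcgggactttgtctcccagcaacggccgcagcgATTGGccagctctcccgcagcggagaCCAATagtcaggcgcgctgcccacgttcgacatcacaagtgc
Aurka promoter, chr2:172370571-172370720, - strand: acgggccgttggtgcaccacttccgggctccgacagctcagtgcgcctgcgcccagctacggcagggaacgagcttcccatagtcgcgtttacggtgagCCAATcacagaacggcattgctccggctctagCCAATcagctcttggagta
Ttk promoter, chr9:83834539-83834688, + strand: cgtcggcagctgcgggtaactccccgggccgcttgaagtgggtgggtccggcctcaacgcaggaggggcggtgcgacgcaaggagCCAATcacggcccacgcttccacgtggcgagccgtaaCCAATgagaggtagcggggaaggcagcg
In the Plk1 sequence the CHR letters began 89 and 29 bases before the start, and in Cdc20 and Espl1 they began 18 and 27 bases before it. The CHR letters of Bub1b, Aurka and Ttk lay after the start, within the first 50 transcribed bases.

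In fed NT+/+ crypts the 10 genes were all detected at moderate levels. In TPM, which scales for transcript length and library size, Cdc20 was the most abundant, at 41.0 ± 2.10 (SD, n = 5), ahead of Plk1 at 36.9 ± 2.22, Aurkb at 33.5 ± 1.58 and Bub1b at 32.3 ± 1.71 TPM. Aurka followed at 25.8 ± 1.96 TPM. The lower tier held Espl1 (15.3 ± 3.21), Bub1 (15.3 ± 2.82), Pkmyt1 (12.3 ± 0.628), Wee1 (11.6 ± 1.66) and Ttk (9.71 ± 1.77 TPM). Neighbours in this order overlapped between mice, except that every Bub1b value was above every Aurka value and every Aurka value above every Espl1 value. The CDK1 inhibitors Wee1 and Pkmyt1 stood in the lower tier of the fed crypt.

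In the fasted crypts of both genotypes the order of the upper tier was Cdc20, Aurkb, Plk1, Bub1b and Aurka, and Aurkb and Plk1 overlapped between mice. Pkmyt1 was eighth of 10 in both fed groups, sixth in NT+/+ Fast at 11.0 ± 0.837 TPM (n = 5) and ninth in NT-/- Fast at 8.33 ± 1.41 TPM (n = 5), but in both fasted groups it overlapped its neighbours Espl1, Wee1 and Bub1, so these places are not a firm order. Between replicates of a group, the coefficient of variation of CPM ran from 7.12% to 25.2%, with a median of 11.2%. All CPM values below were scaled with TMM (trimmed mean of M values) library factors. The fewest counts behind any value were 118, for Ttk in an NT-/- Fast mouse.

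**Figure D1:**
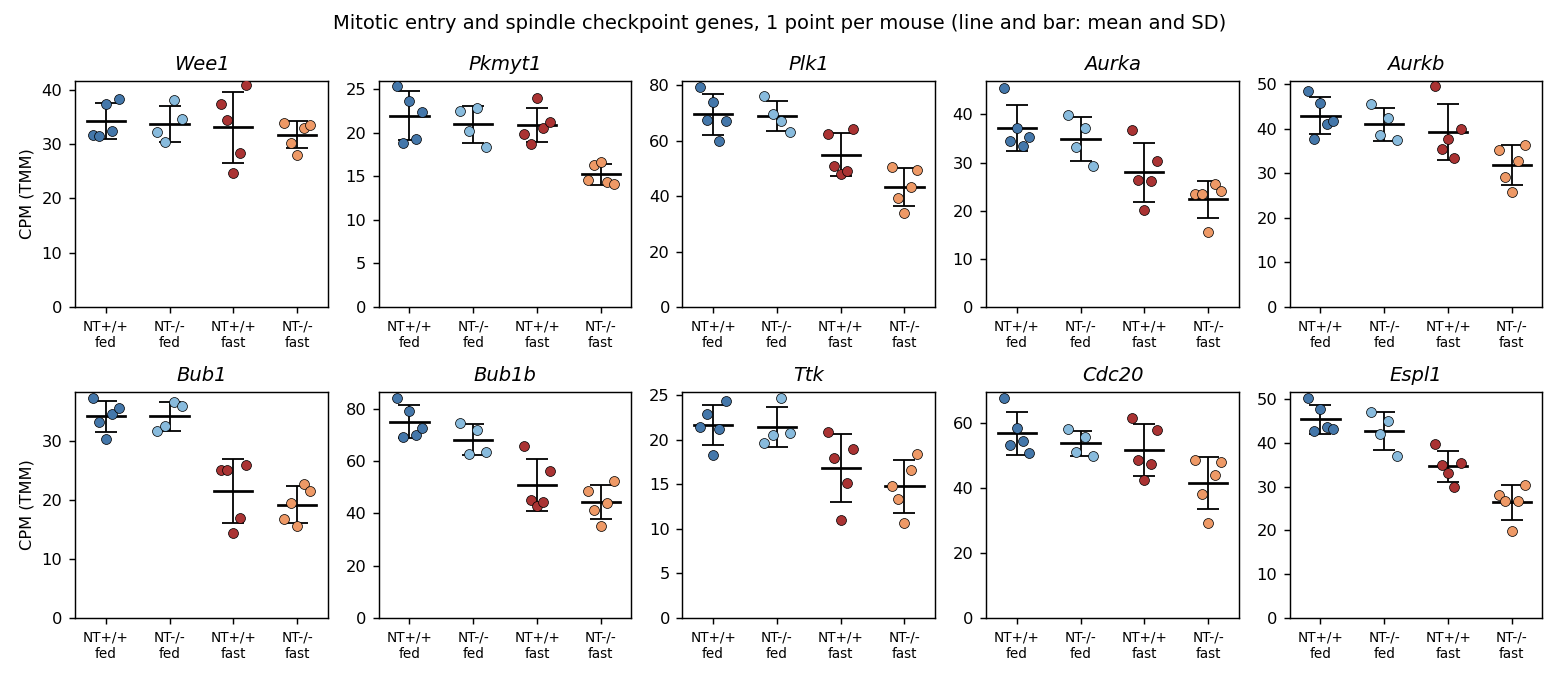
Each panel plots CPM (TMM-scaled) of 1 gene on the vertical axis for the 4 groups, with 1 point per mouse and the mean and SD as line and bar. For Pkmyt1 the 5 NT-/- Fast mice, at 14.2 to 16.6 CPM, lie below all other mice, while the Wee1 values of all groups overlap.

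Fasting lowered most of these genes, Bub1 the most, and left Wee1 without a detected change. In NT+/+ mice 5 of the 10 fell at an adjusted p under 0.05 (edgeR quasi-likelihood test, Benjamini-Hochberg over all genes), beside 10.4% of all genes tested that were called lower. The 5 were Bub1, Bub1b, Espl1, Aurka and Plk1, and none was called higher (11.2% of all genes were). Among NT-/- mice 9 of 10 fell, all except Wee1, beside 12.6% of all genes. The median log2 fold change of the 10 genes was -0.35 in NT+/+ and -0.58 in NT-/- mice, with a median over all genes of -0.01 and -0.02. Averaged over the genotypes, 9 of 10 were called lower, beside 20.2% of all genes. The 2 fasting comparisons share no mice.

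Among the brakes on CDK1, Wee1 was at 31.7, 31.4, 37.3, 32.3 and 38.2 CPM in the 5 NT+/+ AL mice and at 37.3, 34.3, 24.7, 28.4 and 40.8 CPM in the NT+/+ Fast mice. In the 4 NT-/- AL mice it was at 32.1, 30.3, 38.0 and 34.5 CPM, and in the NT-/- Fast mice at 33.9, 30.2, 28.1, 33.0 and 33.5 CPM. All groups overlapped, and the lowest and the highest mouse were both NT+/+ Fast. The log2 fold change with fasting was -0.05 ± 0.11 (SE) in NT+/+ mice (edgeR adjusted p = 0.811) and -0.09 ± 0.12 in NT-/- mice (adjusted p = 0.649). The 95% interval of the effect averaged over genotypes ran from -0.24 to 0.10. The Wee1 locus (7:110122046-110143286, plus strand, GRCm38) holds an antisense gene, 1600010M07Rik, which had at most 1 count in any mouse.

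Pkmyt1, whose product sits on the membranes of the endoplasmic reticulum and Golgi, is the other CDK1 inhibitory kinase. It was at 25.4, 18.8, 23.7, 19.3 and 22.4 CPM in NT+/+ AL mice and at 19.9, 18.8, 24.0, 20.6 and 21.3 CPM in NT+/+ Fast mice. It was at 22.4, 20.2, 22.8 and 18.4 CPM in NT-/- AL mice and at 14.6, 16.3, 16.6, 14.4 and 14.2 CPM in NT-/- Fast mice. The NT+/+ groups overlapped across nearly their whole range, whereas all 5 NT-/- Fast mice were below all 4 fed NT-/- mice. With fasting Pkmyt1 changed by -0.07 ± 0.10 on the log2 scale in NT+/+ mice (edgeR adjusted p = 0.669) and fell by 27.5% in NT-/- mice (log2 fold change -0.46 ± 0.10, adjusted p = 0.00280). The 3′ end of Pkmyt1 (17:23726336-23736735, plus strand) overlaps Paqr4 on the minus strand, and the strand setting of the counting is not given in the sources used here. Paqr4, unlike Pkmyt1, was called lower with fasting in NT+/+ mice (log2 fold change -0.39, edgeR adjusted p = 0.00695). In NT-/- mice Paqr4 fell as Pkmyt1 did (log2 fold change -0.59, edgeR adjusted p = 0.00038). Whether these overlapping genes share reads was not tested.

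Of the activating kinases, Plk1, which promotes CDK1 activation and centrosome maturation, was at 79.2, 67.3, 74.0, 59.8 and 67.1 CPM in NT+/+ AL and at 62.6, 50.8, 47.9, 49.2 and 64.3 CPM in NT+/+ Fast mice. The NT-/- mice were at 76.0, 69.7, 67.1 and 63.0 CPM when fed and at 50.4, 39.4, 34.0, 43.3 and 49.5 CPM when fasted. NT+/+ Fast replicates 1 and 5 lay within the fed range, and every NT-/- Fast mouse was below every fed NT-/- mouse. Plk1 fell by 20.9% in NT+/+ mice (log2 fold change -0.34 ± 0.11, edgeR adjusted p = 0.0326) and by 37.1% in NT-/- mice (-0.67 ± 0.12, adjusted p = 0.000361).

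Aurka, the Aurora kinase of centrosomes and spindle poles, was at 45.4, 34.5, 37.1, 33.3 and 35.3 CPM in NT+/+ AL and at 36.9, 26.3, 20.1, 26.2 and 30.4 CPM in NT+/+ Fast mice. NT+/+ Fast replicate 1 was above 3 of the 5 fed mice, and the other 4 were below all of them. Aurka fell by 24.7% in NT+/+ mice, at the edge of the threshold (log2 fold change -0.41 ± 0.15, edgeR adjusted p = 0.0494), and by 36.2% in NT-/- mice (-0.65 ± 0.15, adjusted p = 0.00439). The NT-/- values ranged from 29.3 to 39.8 CPM when fed and from 15.6 to 25.4 CPM when fasted, without overlap. Aurkb, the kinase of the chromosomal passenger complex, ranged from 37.6 to 48.4 CPM in NT+/+ AL and from 33.5 to 49.5 CPM in NT+/+ Fast mice, with a log2 fold change of -0.13 ± 0.11 (adjusted p = 0.426). Aurkb fell by 22.2% in NT-/- mice (adjusted p = 0.0264), from 37.4 to 45.5 CPM when fed to 25.7 to 36.4 CPM when fasted.

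The checkpoint kinase Bub1 showed the largest fall of the 10 genes in each genotype. It was at 37.2, 33.1, 30.2, 34.5 and 35.6 CPM in NT+/+ AL and at 25.0, 25.1, 14.4, 16.9 and 26.0 CPM in NT+/+ Fast mice, so the groups did not overlap. NT-/- mice had 31.7, 32.5, 36.5 and 36.0 CPM when fed and at 16.7, 19.5, 15.5, 22.7 and 21.6 CPM when fasted, again without overlap. The fall was 37.2% in NT+/+ mice (log2 fold change -0.67 ± 0.14, edgeR adjusted p = 0.00213) and 44.0% in NT-/- mice (-0.84 ± 0.15, adjusted p = 0.000460).

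Bub1b encodes BUBR1, the checkpoint protein that binds and blocks CDC20. It was at 84.2, 69.4, 79.2, 70.2 and 72.7 CPM in NT+/+ AL and at 66.0, 45.0, 42.9, 44.3 and 56.4 CPM in NT+/+ Fast mice. NT-/- values were 74.7, 63.0, 72.0 and 63.5 CPM when fed and at 48.5, 41.2, 35.3, 44.2 and 52.3 CPM when fasted. Fasted mice were below fed mice in both genotypes, and NT+/+ Fast replicate 1 stood closest to the fed range. Bub1b fell by 32.2% in NT+/+ mice (log2 fold change -0.56 ± 0.12, edgeR adjusted p = 0.00199) and by 35.1% in NT-/- mice (-0.62 ± 0.12, adjusted p = 0.00110).

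Ttk, the apical kinase of the checkpoint, ranged from 18.3 to 24.4 CPM in NT+/+ AL and from 11.0 to 20.9 CPM in NT+/+ Fast mice, which overlapped. Its log2 fold change of -0.37 ± 0.15 in NT+/+ mice missed the threshold (edgeR adjusted p = 0.0921). With mice blocked by the number in their title it passed (-0.38, adjusted p = 0.0426, or 0.0116 by the number in the file name), and 6 of the 10 genes were then called lower. Ttk fell by 31.0% in NT-/- mice (adjusted p = 0.0203), from 19.7 to 24.7 CPM when fed to 10.6 to 18.4 CPM when fasted.

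At the exit from the checkpoint, Cdc20 ranged from 50.9 to 67.8 CPM in NT+/+ AL and from 42.4 to 61.8 CPM in NT+/+ Fast mice, with a log2 fold change of -0.14 ± 0.12 (edgeR adjusted p = 0.456). Cdc20 fell by 22.5% in NT-/- mice, close to the threshold (adjusted p = 0.0478), from 49.9 to 58.3 CPM when fed to 29.4 to 48.7 CPM when fasted. Cdc20 (4:118432901-118437352, minus strand) overlaps Elovl1, which showed no called change with fasting (log2 fold change 0.02 averaged over genotypes, adjusted p = 0.799).

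Espl1, which encodes separase, was at 50.2, 42.7, 47.7, 43.6 and 43.1 CPM in NT+/+ AL and at 39.8, 35.0, 33.2, 29.9 and 35.5 CPM in NT+/+ Fast mice. In NT-/- mice it was at 47.2, 42.2, 45.0 and 37.0 CPM when fed and at 28.2, 26.8, 19.8, 26.8 and 30.4 CPM when fasted. No fasted mouse reached the fed range of its genotype. Espl1 fell by 23.7% in NT+/+ mice (log2 fold change -0.39 ± 0.10, edgeR adjusted p = 0.00858) and by 38.4% in NT-/- mice (-0.70 ± 0.11, adjusted p = 0.000102).

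Counted by separation of the mice in CPM, 3 of the 10 genes (Bub1, Bub1b and Espl1) were lower in every NT+/+ Fast than in every NT+/+ AL mouse, beside 6.97% of all genes. In NT-/- mice 9 of 10, all except Wee1, were separated in that way, beside 10.8% of all genes. Which genes separated depended on the scale. In TPM, Bub1 and Espl1 overlapped in NT+/+ mice (lowest fed 11.08 and 12.03, highest fasted 11.89 and 13.35). Plk1 (33.54 against 31.03) and Aurka (23.84 against 23.72) did not overlap there. In NT-/- mice Ttk overlapped in TPM (lowest fed 7.29, highest fasted 7.83). The count of 5 called in NT+/+ mice fell to 3 (Plk1 and Aurka were lost) without NT+/+ AL replicate 1 or 3 or NT+/+ Fast replicate 2, 3 or 4, and was 4 without NT+/+ Fast replicate 5. The count of 9 in NT-/- mice fell to 6 without NT-/- AL replicate 3 or NT-/- Fast replicate 3, or without the 2 shallowest libraries, NT-/- Fast replicates 2 and 4.

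**Figure D2:**
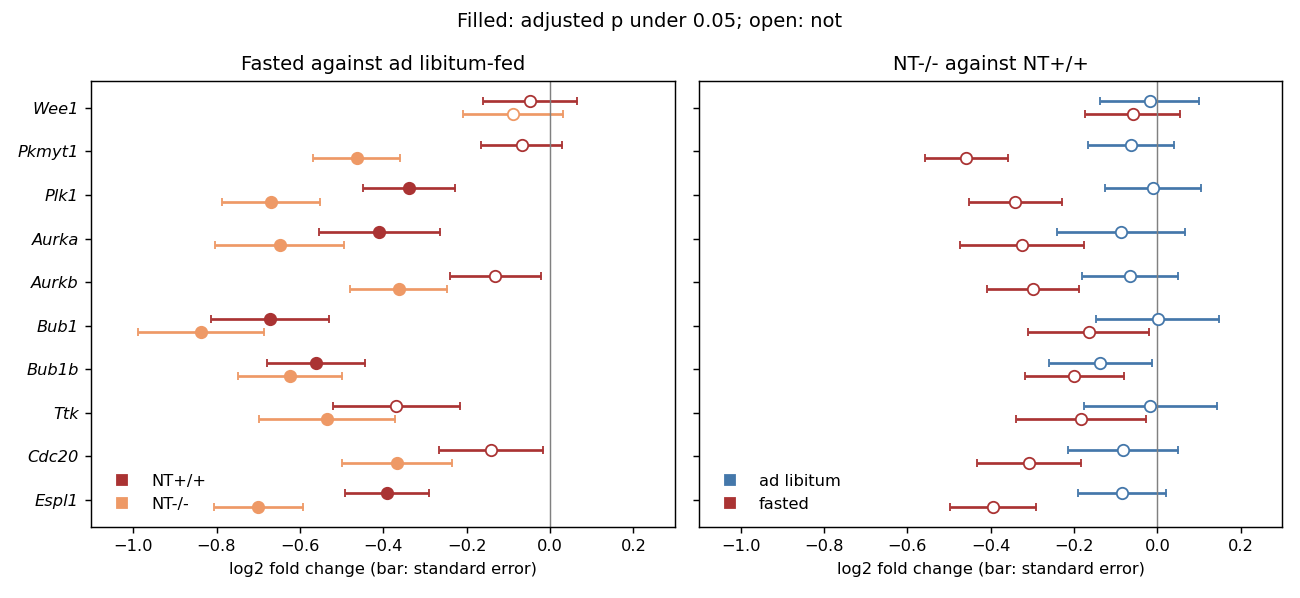
Log2 fold changes (horizontal axis, bars are standard errors) of the 10 genes, on the left for fasting in NT+/+ and NT-/- mice and on the right for genotype in fed and fasted mice, with filled points at an adjusted p under 0.05. Fasting points are filled for 5 genes in NT+/+ and 9 in NT-/- mice, and no genotype point is filled.

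Markers of absorptive enterocytes, the differentiated cells that leave the crypt for the villus, moved with fasting in the opposite direction. All 8 enterocyte markers were called higher averaged over genotypes, with a median log2 fold change of 1.15, and none was at 0 in every mouse. Their summed level was 3698 to 8925 CPM in NT+/+ AL, 6454 to 9246 in NT-/- AL, 8002 to 16890 in NT+/+ Fast and 13440 to 18620 CPM in NT-/- Fast mice. Among NT+/+ Fast mice, replicates 1 and 5, at 8002 and 9979 CPM of enterocyte markers, were also the mice with the highest Plk1, Aurka, Aurkb, Bub1b, Ttk, Cdc20, Espl1 and Wee1. NT+/+ Fast replicate 3 was lowest for 7 of the 10 genes and NT-/- Fast replicate 3 for 9, and those mice held 15470 and 18620 CPM of enterocyte markers. Other mice did not follow that order. NT+/+ Fast replicate 4, with the most enterocyte markers of its group (16890 CPM), was lowest for 2 genes. NT-/- Fast replicate 5 was highest for 4 genes at 18050 CPM. NT-/- AL replicate 1 was highest for 6 genes at 8211 CPM, above replicates 2 and 3 at 6579 and 6454 CPM. Summed crypt stem cell markers were at 1704 to 2876 CPM in NT+/+ AL and 1571 to 2419 CPM in NT-/- AL mice. They were at 1063 to 2022 CPM in NT+/+ Fast and 953 to 1294 CPM in NT-/- Fast mice, without overlap between the NT-/- groups. The median log2 fold change of these 5 markers with fasting was 0.12 in NT+/+ mice, with 1 called lower, so the sum does not stand for every marker. In NT-/- mice the median was -0.23, with 2 called lower, and 2 were called lower averaged over genotypes. Of 5 goblet cell markers, 3 were called lower. The part of a changed mixture of crypt cells in the fall of the mitotic genes was not tested.

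Loss of neurotensin changed none of the 10 genes detectably in fed mice. None was called, beside 0.00559% of all genes (1 gene, Nts itself), and none had an unadjusted p under 0.05, beside 1.67% of all genes. The log2 fold changes ran from -0.14 for Bub1b to 0.00 for Bub1, with a median of -0.07. In CPM no gene of the 10 separated the groups (0.336% of all genes were lower in every NT-/- mouse). In TPM Bub1b did, at 30.1 to 34.9 in NT+/+ AL and 24.5 to 28.5 in NT-/- AL mice. The share of all genes separated in TPM was not counted. For Pkmyt1 the log2 fold change was -0.06 ± 0.10, with a 95% interval from -0.28 to 0.15. DESeq2 called 3 genes and none of the 10.

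In fasted mice the 10 genes were all lower in NT-/- than in NT+/+ crypts by estimate, and none passed the adjusted threshold. No member of the list was called by edgeR, beside 0.00559% of all genes (1 gene, Nts itself). The unadjusted p was under 0.05 for 6, all lower, beside 4.47% of all genes. The 6 were Pkmyt1, Espl1, Plk1, Aurkb, Cdc20 and Aurka. The median log2 fold change of the 10 genes was -0.30, against -0.01 over all genes. By DESeq2, 98 genes were called and Pkmyt1 was among them (log2 fold change -0.45, adjusted p = 0.00930).

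Pkmyt1 had the largest difference, at 20.9 ± 1.98 CPM (n = 5) in NT+/+ Fast and 15.2 ± 1.17 CPM (n = 5) in NT-/- Fast mice, 27.2% lower (log2 fold change -0.46 ± 0.10, edgeR adjusted p = 0.162). It ranked seventeenth of 17875 genes by p. With the replicate block the edgeR adjusted p of Pkmyt1 was 0.0655 by title and 0.0521 by file name, still not past the threshold. It was the only gene of the 10 whose fasted groups did not overlap, beside 0.615% of all genes lower in every NT-/- Fast than in every NT+/+ Fast mouse. Its 5 NT-/- Fast values also lay below all other 14 mice, which held for 44 genes, or 0.246% of those tested. On the TPM scale the fasted groups overlapped, since NT-/- Fast replicate 2, at 10.6 TPM, was above NT+/+ Fast replicates 1 and 5, at 10.3 and 10.2 TPM. Paqr4, which overlaps Pkmyt1, ranged from 35.3 to 45.4 CPM in NT-/- Fast and from 39.5 to 55.0 CPM in NT+/+ Fast mice, with an adjusted p of 0.589. Without the mouse whose labels disagree the log2 fold change of Pkmyt1 was -0.45, and with that mouse counted as NT-/- it was -0.36.

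Separase followed, with Espl1 at 34.7 ± 3.60 CPM (n = 5) in NT+/+ Fast and 26.4 ± 3.98 CPM (n = 5) in NT-/- Fast mice (log2 fold change -0.39 ± 0.10, edgeR adjusted p = 0.240). Those groups overlapped only through NT-/- Fast replicate 5, at 30.4 CPM, and NT+/+ Fast replicate 4, at 29.9 CPM. Plk1 was lower by 21.0% (adjusted p = 0.345), Aurka by 20.2%, Cdc20 by 19.2% and Aurkb by 18.6%, none past the threshold. The checkpoint kinases had smaller estimates, with log2 fold changes of -0.16 ± 0.14 for Bub1, -0.20 ± 0.12 for Bub1b and -0.18 ± 0.16 for Ttk. Enterocyte markers were higher in NT-/- than in NT+/+ Fast mice by a median of 0.41 on the log2 scale, with 0 of 8 called. Summed goblet cell markers did not overlap, at 6671 to 7942 CPM in NT-/- Fast and 8224 to 9477 CPM in NT+/+ Fast mice, with 0 of 5 called, and their part in the genotype difference was not tested. Mki67, a marker of cycling cells, was lower by 14.7% (adjusted p = 0.401).

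Whether fasting acted differently in the genotypes was tested directly as the difference of the fasting effects. No gene passed the adjusted threshold in that test by edgeR or by DESeq2, and 2 of the 10 genes had an unadjusted p under 0.05, beside 2.71% of all genes. They were Pkmyt1, at -0.40 ± 0.14 on the log2 scale, and Espl1, at -0.31 ± 0.15, each with an adjusted p of 1.00. All 10 estimates were below 0, from -0.40 to -0.04 for Wee1, with a median of -0.23 against -0.01 over all genes. Since no gene passed the threshold, the larger number of calls in NT-/- mice is not shown to be a difference between the genotypes. Averaged over diets, NT-/- against NT+/+ mice gave 0 of 10 calls, beside 0.0224% of all genes, and 5 genes with an unadjusted p under 0.05, all lower, beside 3.09% of all genes lower at that p. DESeq2 called 53 genes in that comparison and none of the 10.

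To ask whether each gene moved in step with the amount of proliferation, its level was set against Mki67 in the same mouse. Mki67 fell from 828 ± 45.8 CPM in NT+/+ AL to 601 ± 64.8 CPM in NT+/+ Fast mice (n = 5 each, log2 fold change -0.46, edgeR adjusted p = 0.000866), and from 773 ± 47.6 (n = 4) to 513 ± 50.9 CPM (n = 5) in NT-/- mice (-0.59, adjusted p = 0.000119). In NT+/+ mice the log2 ratio to Mki67 was higher in fasted than in fed mice by 0.403 for Pkmyt1 and by 0.329 for Aurkb (exact permutation test, two-sided, p = 0.00794 each, the smallest these groups allow). Wee1, by 0.403, and Cdc20, by 0.320, were also higher (exact permutation p = 0.0159 each). None passed after adjustment over the 40 ratio tests, where the smallest adjusted p was 0.106. With 0.00794 as the smallest possible p, a lone ratio or a few could not pass that adjustment. The lack of a pass therefore does not show that the ratios were unchanged.

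In NT-/- mice the ratio of Wee1 to Mki67 was higher after fasting by 0.510 (exact permutation p = 0.00794, adjusted p = 0.106), while that of Pkmyt1 was higher by 0.149 (exact permutation p = 0.325). The ratio of Bub1 was lower by 0.233 in NT-/- mice (exact permutation p = 0.0317, adjusted p = 0.212) and by 0.226 in NT+/+ mice (exact permutation p = 0.119). Bub1b differed from Mki67 by -0.106 in NT+/+ and -0.032 in NT-/- mice, the latter a near match (exact permutation p = 0.286 and 0.770). Between genotypes in fasted mice, the ratio of Pkmyt1 was lower in NT-/- by 0.214 (exact permutation p = 0.175) and that of Wee1 higher by 0.188 (exact permutation p = 0.0476, adjusted p = 0.272). A ratio of this kind shows unequal change and not which of the pair moved.

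**Figure D3:**
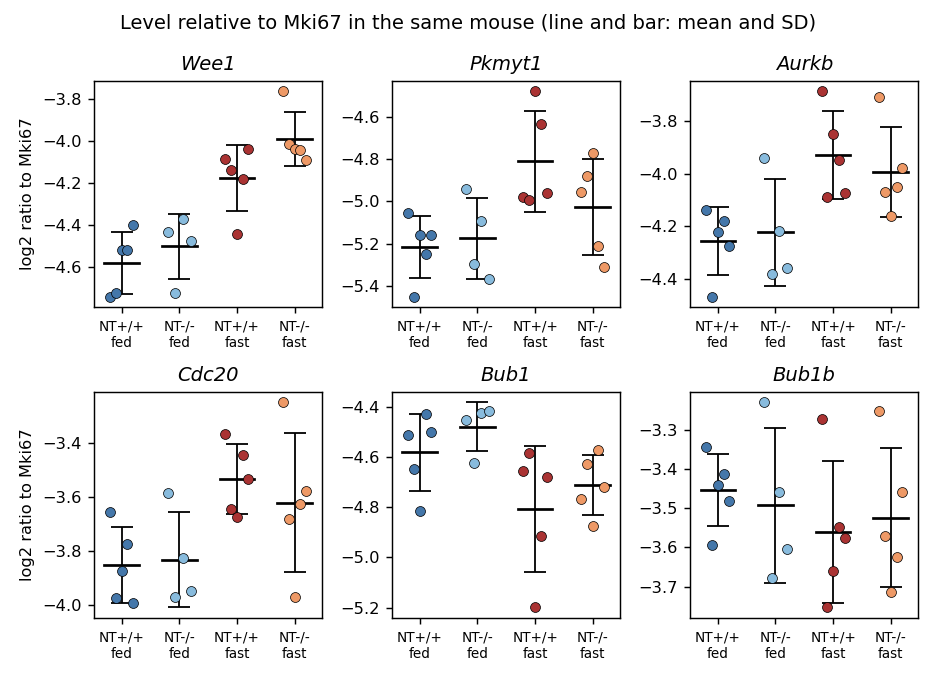
Log2 ratio of 6 genes to Mki67 in the same mouse (vertical axis) for the 4 groups, with 1 point per mouse and the mean and SD as line and bar. Wee1 ratios are higher in both fasted groups, by 0.403 in NT+/+ and 0.510 in NT-/- mice. The Pkmyt1 ratio is higher by 0.403 in NT+/+ mice, and Bub1 lies lower after fasting in both genotypes. No ratio passes the adjusted threshold, which a lone ratio could not pass in groups of this size.

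Across the 19 mice the genes moved together, with Pkmyt1 apart within groups. The correlation of each gene with the mean of the standardized log2 CPM of all 10, which contains the gene itself, was 0.878 to 0.969 for 8 genes, 0.641 for Pkmyt1 and 0.609 for Wee1 (Pearson r, n = 19, a description over mice that share groups). After the group means were taken out, Pkmyt1 had an r of 0.006 with that mean, while the other 9 ran from 0.688 (Bub1) to 0.959 (Bub1b), with Wee1 at 0.73. NT+/+ Fast replicate 3 and NT-/- Fast replicate 3 showed this directly, since both were lowest of their group for most of the 10 genes and highest for Pkmyt1, at 24.0 and 16.6 CPM.

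Outside the list, the 8 genes whose CPM followed the mean of the 10 most closely over the 19 mice were Kif20a (r = 0.977), Kpna2 (0.976), Tpx2 (0.973), Kif22 (0.960), Cdca3 (0.955), Baz1b (0.955), Ncaph (0.954) and E2f8 (0.952). Kif20a and Kif22 encode mitotic kinesins, Tpx2 the activator of Aurora A on the spindle and Ncaph a condensin subunit. Of these 8, 5 were again among the closest 8 when deviations from the group means were used.

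Partners of the 10 genes were counted in 5 lists of mitotic genes and a reference pair, with the effect of fasting averaged over genotypes (20.2% of all genes called lower, 19.2% higher). Of 16 kinetochore and checkpoint partners, 15 fell, with a median log2 fold change of -0.49. Kntc1, a subunit of the complex that brings dynein to kinetochores, fell most (-0.84 ± 0.08, edgeR adjusted p = 7.5e-08), and Nuf2 (-0.69), Mad2l1 (-0.53) and Bub3 (-0.27) fell as well. Of 17 genes of the G2 to M switch, 12 fell, with a median of -0.30. Among them were Mybl2 (-0.59), a transcription factor of late cell cycle genes, Ccna2 (-0.48), Tpx2 (-0.48) and Ccnb1 (-0.30, adjusted p = 0.0105). Cdk1 itself was at -0.15 ± 0.07 and did not pass (adjusted p = 0.0888).

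Of 6 chromosomal passenger and centromere protection genes, 5 fell, with a median of -0.35, including Cdca8 (-0.47), Haspin (-0.36), Birc5 (-0.34) and Incenp (-0.31). Cohesin and separase regulators were mixed, with 6 of 14 lower, 1 higher and a median of -0.14. Pds5b (-0.68), Pds5a (-0.37), the separase inhibitor Pttg1 (-0.38, edgeR adjusted p = 0.00345) and the cohesin subunit Smc1a (-0.31) were among those that fell. Of 18 genes of the anaphase-promoting complex, its coactivators and E2 enzymes, 8 fell and 1 rose, with a median of -0.16. Fbxo5 (-0.67), an inhibitor of the complex, the scaffold subunit Anapc1 (-0.54) and the E2 enzyme Ube2c (-0.50) fell. The reference genes Mki67 (-0.53) and Top2a (-0.70) both fell. In none of these lists was a gene called for genotype in fed or fasted mice. For genotype in fasted mice the unadjusted edgeR p was under 0.05, in either direction, for 9.14% of all genes. The counts were 7 of 17 switch genes, 5 of 16 kinetochore partners, 4 of 6 passenger genes and 2 of 2 reference genes. They were 1 of 14 cohesin and separase regulators and 2 of 18 anaphase-promoting complex genes. Cdk1 was lower by 18.8% in NT-/- crypts (edgeR adjusted p = 0.335).

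**Figure D4:**
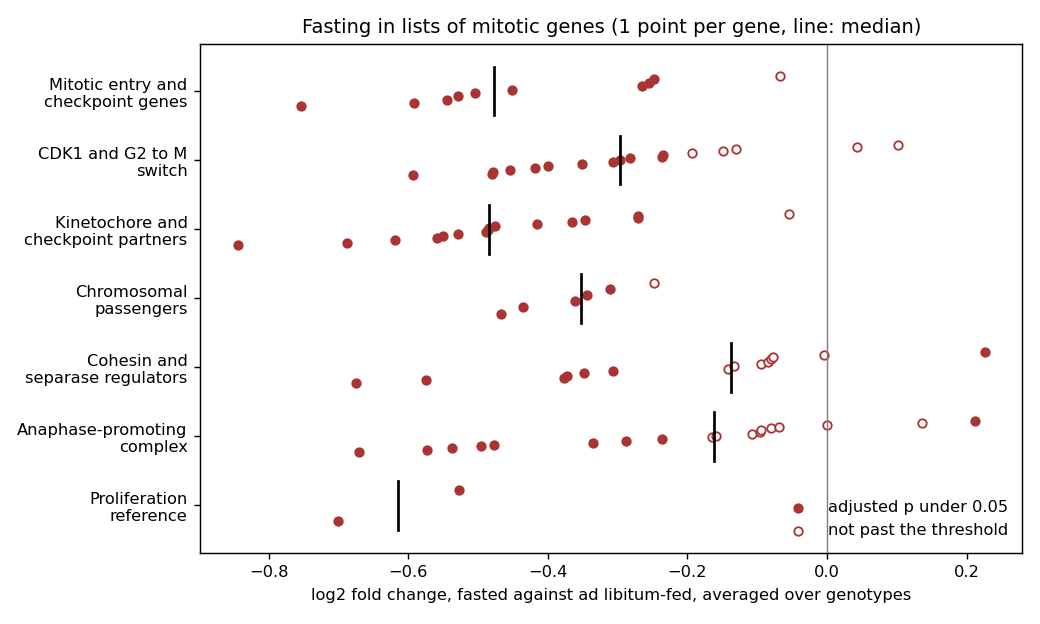
Log2 fold change for fasting averaged over genotypes (horizontal axis) of each gene in the list of 10 and in 6 further lists, with the list median as a line and filled points at an adjusted p under 0.05. The 10 genes (median -0.48) and the kinetochore partners (-0.49) lie farther below 0 than the cohesin (-0.14) and anaphase-promoting complex genes (-0.16).

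Sex was compared within groups in the 18 mice with a sex label (6 male, 12 female), with 1 mouse dropped. None of the 10 genes was called by edgeR, beside 0.0789% of the 17743 genes tested there (14 genes). Aurka was the only one with an unadjusted p under 0.05, with a log2 difference of -0.27 ± 0.11 in males against females (edgeR adjusted p = 0.39). Pkmyt1, at 0.08 ± 0.08, and Wee1, at 0.04 ± 0.09, were the genes with estimates above 0.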

How the data were processed

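RNA was sequenced from crypts of 19 mice as single-end reads of 100 bases from libraries depleted of ribosomal RNA. The authors trimmed reads with Trimmomatic (0.39) and assigned them to genes of GRCm38 with RSEM, and the deposited files give an expected count and a TPM value per gene and mouse. The RSEM version and the strand setting are not given in the sources used here. Expected counts, of which 13.2% were not whole, were rounded, and TPM was used to compare levels between genes and, where stated, as a check on CPM.

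Counts were fitted in R (4.3.3) with edgeR (4.0.16): TMM factors, filterByExpr, 1 coefficient for each of the 4 groups and the quasi-likelihood test, with Benjamini-Hochberg adjustment over all 17875 genes and calls at 0.05. The biological coefficient of variation was 18.9%. The script was tested on counts simulated with 1 spread for all genes and known changes in NT+/+ Fast mice. It called 28% of the 1.5-fold and 88% of the 2-fold changes, and 4.13% of its calls were false. Changes smaller than these can go uncalled. DESeq2 (1.42.0), other normalizations, other filters, sex as a term, the groups compared alone, mice left out and the mouse with disagreeing labels counted as NT-/- were alternatives, and leaving out the 2 shallowest libraries was added after seeing the data. Ratios to Mki67 used log2(CPM + 0.5) and exact permutation tests over mice (SciPy 1.17.1). Groups came from the sample titles. P-values rest on 1 library per mouse.

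The titles number the mice in each group, the file names hold a second numbering, and neither the labels nor the methods say what a number means. The fit had no replicate block, and the block was an alternative. By title, same-number mice deviated together in every pair for fasting in NT+/+ mice (r from 0.165 to 0.499) and for genotype in fasted mice (0.124 to 0.453) but not in the other 2 comparisons, where the lowest r was -0.06. By file name they did so in every pair of all 4 comparisons, with a lowest r of 0.117. Blocked values are given where they change a call, and for Pkmyt1 between the genotypes in fasted mice.

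The 10 genes and the lists were chosen with earlier results of these data known. Genes named were the 10, Nts, the 3 genes of each list with the smallest p for fasting averaged over genotypes, a fixed set (Cdk1, Ccnb1, Mad2l1, Bub3, Incenp, Birc5, Pttg1, Mki67, Top2a) and the 8 genes most like the 10. Paqr4, Elovl1 and 1600010M07Rik were named because they overlap 1 of the 10. Plk1 and Espl1 also overlap annotated genes on the other strand, Gm44985 and Gm49480, whose counts were not examined. Promoters were read from a RefSeq table, and gene positions from the GENCODE annotation of GRCm38.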

Additional observations from a re-analysis of the deposited data

Results flagged for a closer look

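Aurka in NT-/- Fast replicate 3, at 15.6 CPM, lay far below the other 4 mice of its group, which ran from 23.4 to 25.4 CPM. The gap to the nearest mouse was 0.789 of the range of the group, above the critical value of 0.71 for 5 samples. It was the only such value in 40 groups (10 genes in 4 groups), where chance gives about 1 in 20. The same mouse was lowest of its group for 9 of the 10 genes, and its summed enterocyte markers, at 18620 CPM, were the highest of all mice.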

How the results depend on the processing

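The fall of Bub1, Bub1b and Espl1 with fasting passed the threshold in each genotype under every alternative run. The number of the 10 genes called lower ran from 3 to 6 in NT+/+ mice, from 6 to 9 in NT-/- mice and from 8 to 9 averaged over genotypes when single mice were left out. The replicate block made Ttk a call in NT+/+ mice (6 genes in place of 5, with either numbering) and changed no other call of the 10. For Aurka in NT+/+ mice and Cdc20 in NT-/- mice the adjusted p of 0.0494 and 0.0478 rose above 0.05 when most single mice were left out. Both calls were also lost with DESeq2 size factors in edgeR, with no filter on low counts and with only the groups compared. Cdc20 in NT-/- mice was lost with the DESeq2 Wald test as well (adjusted p = 0.0547). In NT-/- mice Aurkb was lost without NT-/- AL replicate 1 or 3 or NT-/- Fast replicate 2 or 3, and Ttk without NT-/- AL replicate 3 or NT-/- Fast replicate 3. With the mouse of disagreeing labels counted as NT-/-, 4 genes were called in NT+/+ and 7 in NT-/- mice. The cause of these changes was not tested.

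Counts of genes called for genotype were small and moved with the tool. In fed mice the count was 1, the neurotensin gene Nts itself (edgeR adjusted p = 5.8e-07). The count was 3 with DESeq2, 0 with at least 10 counts required in every mouse and 0 with the mouse of disagreeing labels as NT-/-. That filter removes Nts, which had 3 to 14 counts in NT-/- AL mice. The mouse of disagreeing labels had 97 Nts counts. In fasted mice the count was 1, again Nts (edgeR adjusted p = 1.4e-05), and 98 with DESeq2 (1 of the 10 genes, Pkmyt1). The count was 0 with the stricter filter and 0 with the relabelled mouse. It was 1 to 4 with single mice left out, 4 without NT-/- Fast replicate 1. Averaged over diets it was 4, and 10 and 15 with the replicate block by title and by file name, 53 with DESeq2, 1 with the relabelled mouse, 1 with sex as a term, 7 without the 2 shallowest libraries and 1 to 6 with single mice left out. Of the 8 genes most like the 10, 5 were shared after group means were taken out, and the CHR letters alone and with CCAAT were in 3 promoters each before the start.

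Directions that turned belonged to estimates near 0. In fed mice the genotype estimate of Wee1, Plk1 and Ttk became 0.0311, 0.0213 and 0.0611 with the replicate block by title. That of Bub1 (0.0005) became -0.0793 with the block by file name, -0.0006 with upper quartile scaling, -0.0031 with the stricter filter and -0.0129 with sex. With the relabelled mouse as NT-/-, Wee1 and Bub1 became 0.0953 and 0.0007 in fasted mice, 0.0383 and 0.0006 averaged over diets, and 0.114 and 0.0003 in the difference of fasting effects, where Bub1b became 0.0422. That difference for Wee1 became 0.0008 with the block by file name. With single mice left out, the genotype estimates in fed mice ran from -0.0393 to 0.0353 (Bub1), -0.0615 to 0.0417 (Plk1), -0.0925 to 0.0297 (Ttk) and -0.0802 to 0.0288 (Wee1). Wee1 ran from -0.149 to 0.0271 for genotype in fasted mice, from -0.0834 to 0.0042 averaged over diets, from -0.131 to 0.0458 in the difference and from -0.134 to 0.0427 for fasting in NT+/+ mice, and Bub1b from -0.131 to 0.0485 in the difference.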

Other observations

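Among fed NT+/+ mice, replicate 1 was highest for 8 of the 10 genes and held 3698 CPM of summed enterocyte markers, the lowest of all mice. In the other fed NT+/+ mice those markers were at 6894 to 8925 CPM.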
